A study of Mus musculus with 12 samples.

Results

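The 10 genes described here are the Notch receptors, ligands and targets listed in C2C12, a mouse myoblast cell line that grows in culture and can form myotubes: the receptors Notch1, Notch2 and Notch3, the ligands Jag1, Jag2 and Dll1, and the Hes and Hey genes Hes1, Hey1, Heyl and Hes6. They were selected by gene symbol from a list of pathway members, with no threshold on a measured value but with earlier results of these data known, and make up 10 of the 13768 genes listed in at least 1 of the tables; all 10 are in both tables. RNA sequencing was done on 4 groups: polysomal RNA and total cellular RNA of Ddx27-/- cells (KO), and polysomal RNA and total cellular RNA of wild-type cells (WT). Ddx27 encodes an RNA helicase of the DEAD-box family that acts on ribosomal RNA in the nucleolus. Per the labels, polysomal RNA came from purified polysomes, and each group has 3 samples. Values were analysed here for 3 KO polysomal, 2 KO total, 3 WT polysomal and 3 WT total libraries. No treatment, time in culture or knockout clone is given in the labels, nor whether the samples were separate cultures, and p-values therefore measure only the spread between these libraries.

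Notch signalling passes between touching cells. A ligand of the Jagged or Delta family on one cell binds a Notch receptor on its neighbour, the receptor is cut by ADAM proteases and gamma-secretase, and its freed intracellular domain joins the DNA-binding protein RBPJ to switch on genes such as Hes1, Hey1 and Heyl, which encode basic helix-loop-helix repressors. In the muscle lineage the pathway is known for keeping satellite cells and myoblasts from differentiating, in part by holding back MyoD. Hes6 belongs to the same protein family but is known as an antagonist of HES1 and as a promoter of myogenic differentiation.

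Library depth ran between 13683674 and 27347878 reads assigned to genes, so that 3 reads were worth 0.0989 to 0.257 normalised read counts on the deposited scale. The levels of Ddx27 and of single marker genes in this paragraph are on a scale common to all 11 libraries, and the sums over lists and Cd68 are on the deposited scale. The targeted gene, Ddx27, had 54.3, 42.6 and 31.6 normalised read counts in KO polysomal RNA and 41.9 and 47.5 in KO total RNA, against 200, 142 and 203 in WT polysomal RNA and 145, 139 and 136 in WT total RNA. Of the myoblast markers, Myod1, the gene of the myogenic factor MyoD, was near 0 in the KO: it had 0, 0 and 0.0869 normalised read counts in KO polysomal RNA and 0.383 and 1.196 in KO total RNA, against 65.6, 97.9 and 75.0 in WT polysomal RNA and 132, 133 and 173 in WT total RNA. Myf5, another myogenic factor, was present in all 11 libraries, with 113 and 129 normalised read counts in KO total RNA against 56.0 to 68.2 in WT total RNA, and it was higher in the KO (log2 change 0.98 ± 0.15, limma adjusted p = 0.00322). The other myoblast markers went the opposite way in KO over WT total RNA: Des fell by 1.73, Itga7 by 1.17 and Cdh15 by 1.03 on the log2 scale (limma adjusted p between 0.00137 and 0.00233), and Pax7 was listed in the WT table alone. The 5 myoblast markers listed in the KO table summed to 461 to 539 in KO polysomal and 1032 to 1205 in KO total libraries. The 6 listed in the WT table summed to 888 to 1042 in WT polysomal and 2921 to 4021 in WT total libraries. A list of 7 genes of differentiating muscle summed to 15.7 to 23.7 in KO polysomal, 155 to 192 in KO total, 19.8 to 31.2 in WT polysomal and 326 to 803 in WT total libraries. Of 4 endothelial markers, 0 were listed in either table, and of 3 leukocyte markers only Cd68 was, at 0.913 to 4.94 normalised read counts; of 4 fibroblast markers 2 were listed in the KO table and 3 in the WT table, where they summed to 7.28 to 11.2 in KO polysomal, 15.3 to 19.9 in KO total, 5.16 to 11.99 in WT polysomal and 37.7 to 58.5 in WT total libraries. Gene models that collect ribosomal RNA reads (Gm26924, Gm26917, mmu-mir-6236 and Lars2) took 22.9%, 32.4% and 0.381% of reads in the KO polysomal libraries 1, 2 and 3, and 5.85%, 14.4% and 0.665% in the WT polysomal libraries, against at most 0.146% in every total library. The part of these marker and ribosomal RNA differences in the results below was not tested.

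Upstream sequence for 7 of the 10 genes was taken from RefSeq (GRCm38.p6). None was at hand for Hes1, Hey1 and Heyl, so these were not searched for motifs. The 250 bases before the promoter start nearest the gene start are shown for 5 genes. These are the 3 receptors, which were all lower in KO than in WT total RNA, and Dll1 and Hes6, the members that were higher there. The windows lie at chr2:26503823-26504072 (minus strand) for Notch1, chr3:98013288-98013537 (plus strand) for Notch2, chr17:32166891-32167140 (minus strand) for Notch3, chr17:15376933-15377182 (minus strand) for Dll1 and chr1:91414039-91414288 (minus strand) for Hes6. Each is written 5′ to 3′ on the gene's strand and ends at the base before that promoter start. For Notch3 this start, 32166890, lies just inside the gene, which ends at 32166896. For Jag2, searched but not shown, it is 112929495, and the whole window lies inside the gene, which ends at 112929812. Capitals mark GGGCGG (the GC box, on either strand) or CANNTG (the E-box, the motif bound by MyoD and many other basic helix-loop-helix factors).
Notch1: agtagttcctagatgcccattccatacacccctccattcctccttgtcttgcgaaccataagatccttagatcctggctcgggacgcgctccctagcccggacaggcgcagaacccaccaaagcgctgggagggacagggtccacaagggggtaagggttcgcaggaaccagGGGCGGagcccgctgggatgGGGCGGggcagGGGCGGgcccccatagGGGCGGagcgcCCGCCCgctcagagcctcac
Notch2: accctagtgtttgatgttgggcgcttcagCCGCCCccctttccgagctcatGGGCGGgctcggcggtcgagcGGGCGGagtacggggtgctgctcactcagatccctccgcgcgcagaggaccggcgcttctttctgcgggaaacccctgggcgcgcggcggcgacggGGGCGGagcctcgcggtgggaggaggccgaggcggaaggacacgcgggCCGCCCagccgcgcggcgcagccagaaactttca
Notch3: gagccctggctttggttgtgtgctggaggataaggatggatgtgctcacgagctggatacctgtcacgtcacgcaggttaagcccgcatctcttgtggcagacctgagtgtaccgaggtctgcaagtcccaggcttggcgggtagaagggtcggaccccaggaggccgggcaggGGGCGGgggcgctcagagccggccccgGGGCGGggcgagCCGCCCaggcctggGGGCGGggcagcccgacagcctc
Dll1: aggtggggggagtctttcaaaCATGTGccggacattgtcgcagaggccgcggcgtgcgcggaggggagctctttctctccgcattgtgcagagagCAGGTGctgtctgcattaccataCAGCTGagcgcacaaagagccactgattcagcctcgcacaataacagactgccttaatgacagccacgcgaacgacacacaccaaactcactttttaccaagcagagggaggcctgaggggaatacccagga
Hes6: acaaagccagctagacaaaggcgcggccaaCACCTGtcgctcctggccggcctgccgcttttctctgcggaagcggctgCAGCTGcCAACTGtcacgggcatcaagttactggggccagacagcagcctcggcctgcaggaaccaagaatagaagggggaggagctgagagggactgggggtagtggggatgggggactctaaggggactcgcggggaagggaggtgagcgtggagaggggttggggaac
The GC box occurred 5 times in the Notch1 window, 5 times in that of Notch2 4 times in that of Notch3 and 5 times in that of Jag2, and 0 times in those of Jag1, Dll1 and Hes6. The E-box had 3 matches each in Dll1 and Hes6, 1 in Jag1, and 0 in Jag2 and the 3 receptors. Of 32851 mouse promoter windows of the same length, 32.7% hold a GC box and 66.2% an E-box. The GC content was 66.0% for Notch1, 72.0% for Notch2, 68.8% for Notch3, 56.0% for Dll1 and 63.6% for Hes6, against a median of 52.4% over all windows. The core TGGGAA bound by RBPJ was found on neither strand of any of the 7 member windows, against 21.6% of all windows, and the N-box CACNAG bound by HES repressors occurred in the 3 receptors and not in Jag1, Jag2, Dll1 or Hes6, against 36.7% of all windows. The motifs were chosen after the expression values were known; a match is a description of the letters, not a binding site.

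**Figure D1:**
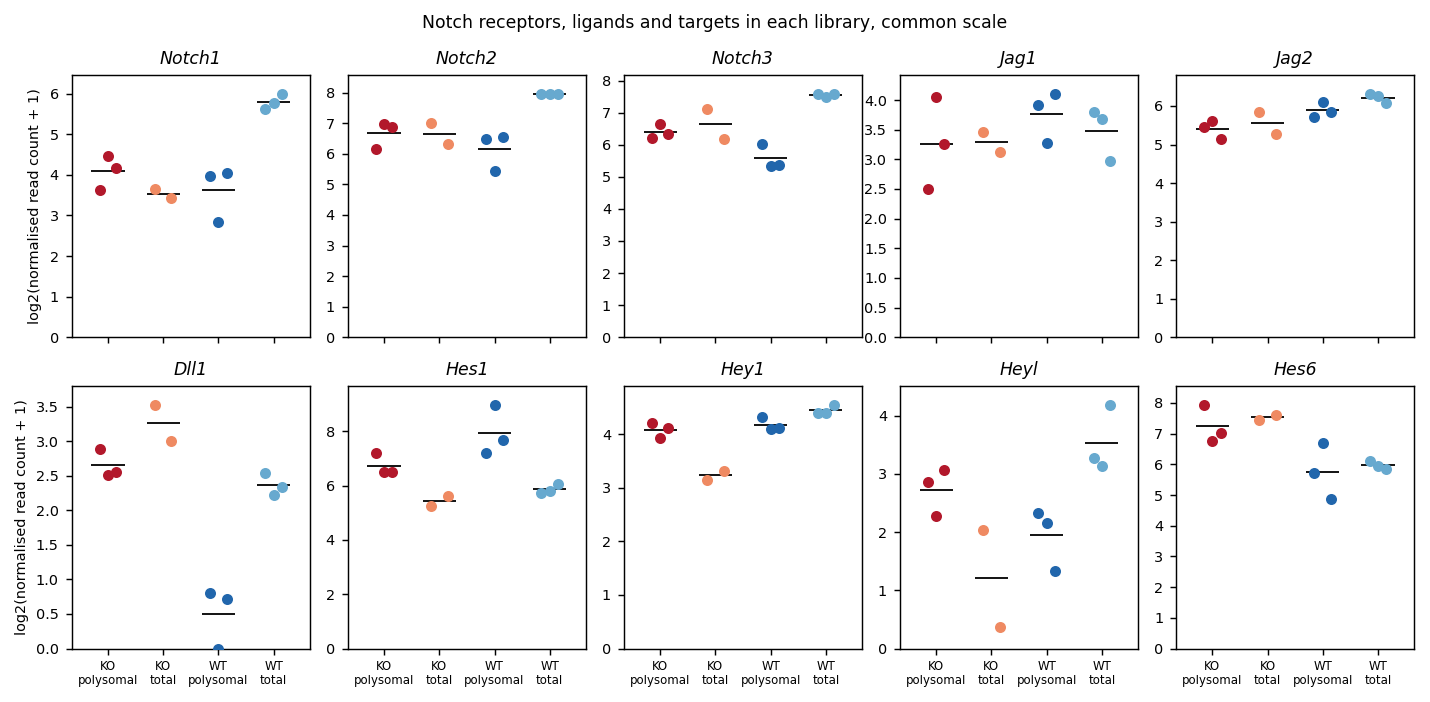
Levels of the 10 genes in each library. Each panel is 1 gene; the y axis is log2(normalised read count + 1) on a scale common to all 11 libraries, points are libraries and bars are group means (n = 3, except 2 for KO total). The receptors are highest in the WT total libraries, while Hes6 is higher in both KO groups than in WT total RNA.

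The first question the design asks is which mRNAs are over- or under-represented in polysomes relative to total RNA. In WT cells the 3 receptors, Dll1 and Heyl were all lower in polysomal than in total RNA, while Hes1 was higher, a pattern that put 1 gene up and 5 down among the 10 members. In KO cells Hes1 was again higher in polysomal RNA and no member was lower. Of all genes tested, 2.76% changed in either direction in KO cells (0.911% higher and 1.85% lower, of 12070), and 22.7% in WT cells (8.89% higher and 13.8% lower, of 12380), by limma with an adjusted p under 0.05. The members' median log2 change was 0.03 in KO cells, where that of all genes was 0.04, and -0.96 in WT cells, where that of all genes was -0.02. Every WT polysomal library was below every WT total library in 7 members, against 26.8% of the genes in the WT table. Levels of the members in this comparison are on the deposited scale. All 10 members passed the filter on low values in both genotypes. In WT cells Dll1, 1 of the 5 lower members, passed it only through the total libraries, where it was higher.

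Notch1 (chr2:26457902-26503822, ENSMUSG00000026923) encodes the receptor best known from T-cell and satellite cell biology. Its level was 10.96, 20.1 and 17.0 normalised read counts in KO polysomal RNA, against 10.95 and 9.27 in KO total RNA. In WT cells it was 15.6, 5.96 and 16.5 in polysomal RNA, against 49.8, 55.5 and 64.2 in total RNA. The 3 WT polysomal libraries thus all lay far below the 3 WT total libraries, whereas in KO cells the polysomal libraries lay above both total libraries on the deposited scale, the lowest of them by a small margin. The log2 change was 0.58 ± 0.30 in KO cells (SE, limma adjusted p = 0.298) and -2.18 ± 0.36 in WT cells (limma adjusted p = 0.00802).

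Notch2 (chr3:98013538-98150367, ENSMUSG00000027878) encodes a receptor widely expressed in mesenchymal cells. It had 67.9, 120 and 116 normalised read counts in KO polysomal RNA, against 121 and 75.1 in KO total RNA. In WT polysomal RNA it had 93.3, 40.9 and 98.2, against 254, 255 and 254 in WT total RNA. The KO groups overlapped and the WT groups were wide apart, with 3 nearly equal WT total libraries. Its log2 change was 0.05 ± 0.33 in KO cells (95% confidence interval -0.69 to 0.79, limma adjusted p = 0.949) and -1.80 ± 0.33 in WT cells (limma adjusted p = 0.0106).

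Notch3 (chr17:32120820-32166896, ENSMUSG00000038146) encodes a receptor known from vascular smooth muscle and from muscle satellite cells. It had 70.2, 94.6 and 79.2 normalised read counts in KO polysomal RNA, against 129 and 67.1 in KO total RNA, and here too the KO groups overlapped. In WT cells it had 68.5, 38.8 and 43.0 in polysomal RNA, against 196, 186 and 195 in total RNA, with no overlap. The log2 change was -0.20 ± 0.31 in KO cells (95% confidence interval -0.90 to 0.50, limma adjusted p = 0.735) and -1.97 ± 0.23 in WT cells (limma adjusted p = 0.00291), the smallest adjusted p among the members in WT cells.

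Among the ligands, Dll1 (chr17:15367354-15376932, ENSMUSG00000014773), a Delta-like ligand that mouse embryos need for muscle growth, was the one that fell in WT polysomes. It had 6.19, 4.53 and 4.82 normalised read counts in KO polysomal RNA, against 9.93 and 6.64 in KO total RNA. In WT polysomal RNA it had 0.788, 0 and 0.682, against 4.97, 3.80 and 4.17 in WT total RNA; the 0 stands for a library in which 3 reads were worth 0.242. Polysomal libraries were below total libraries without overlap in both genotypes, by a log2 change of -0.57 ± 0.28 in KO cells (limma adjusted p = 0.270) and -1.87 ± 0.27 in WT cells (limma adjusted p = 0.00550). In WT cells Dll1 passed the filter on low values only through its total libraries, and without the filter the call was the same.

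The Jagged ligands moved little between fractions. Jag2 (chr12:112907803-112929812, ENSMUSG00000002799) had 41.8, 45.8 and 34.1 normalised read counts in KO polysomal RNA, against 53.7 and 35.5 in KO total RNA, and 54.9, 65.7 and 59.4 in WT polysomal RNA, against 81.1, 77.5 and 68.3 in WT total RNA. The KO groups overlapped and the WT polysomal libraries lay just below the WT total ones. Its log2 change was -0.11 ± 0.27 in KO cells (limma adjusted p = 0.839) and -0.33 ± 0.17 in WT cells (limma adjusted p = 0.182). Jag1 (chr2:137081451-137116520, ENSMUSG00000027276), the Jagged ligand mutated in Alagille syndrome, had 4.49, 14.97 and 8.48 normalised read counts in KO polysomal RNA, against 9.43 and 7.28 in KO total RNA, and 15.02, 8.46 and 17.1 in WT polysomal RNA, against 13.4, 12.3 and 6.98 in WT total RNA. Its groups overlapped in both genotypes, and the 95% confidence intervals of its log2 change, -0.94 to 0.98 in KO cells and -0.50 to 1.06 in WT cells, leave room for changes of about 1 log2 unit (limma adjusted p = 0.985 in KO cells and 0.552 in WT cells).

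Hes1 (chr16:30065357-30067796, ENSMUSG00000022528), the repressor that is the best known direct target of Notch, was higher in polysomal RNA in both genotypes. It had 140, 86.8 and 89.0 normalised read counts in KO polysomal RNA, against 34.9 and 45.6 in KO total RNA. It had 157, 486 and 217 in WT polysomal RNA, against 53.8, 57.5 and 68.0 in WT total RNA. Every polysomal library was above every total library of its genotype, and WT polysomal library 2 was well above the others. The log2 change was 1.34 ± 0.28 in KO cells (limma adjusted p = 0.0470) and 2.08 ± 0.39 in WT cells (limma adjusted p = 0.0115). In KO cells the call was lost with TMM scaling (limma adjusted p = 0.0516), in edgeR on the recovered reads (adjusted p = 0.0563), where 2.51% of all genes were called, and without KO total library 1 (0.185) or 2 (0.222) or KO polysomal library 2 (0.0562) or 3 (0.143), while the log2 change stayed between 1.12 and 1.53 with any library left out. DESeq2, which called 10.7% of all genes, called Hes1 and Hey1 in KO cells.

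Heyl (chr4:123233556-123249870, ENSMUSG00000032744) and Hey1 (chr3:8663359-8667038, ENSMUSG00000040289) encode the hairy-related repressors that Notch activates in many tissues. Heyl had 6.06, 3.68 and 7.32 normalised read counts in KO polysomal RNA, against 2.93 and 0.283 in KO total RNA, the lower of which rests on 7 reads. In WT cells it had 4.27, 3.38 and 1.62 in polysomal RNA, against 8.98, 8.11 and 17.6 in total RNA. The polysomal libraries were all higher than the total ones in KO cells and all lower in WT cells: the log2 change was 1.53 ± 0.47 in KO cells (limma adjusted p = 0.113) and -1.60 ± 0.37 in WT cells (limma adjusted p = 0.0222). Hey1 showed the same layout at smaller size, with 16.9, 13.8 and 16.1 in KO polysomal RNA, against 7.42 and 8.50 in KO total RNA, and 20.2, 15.6 and 17.3 in WT polysomal RNA, against 20.7, 20.9 and 22.8 in WT total RNA. Its KO groups were well apart, and in WT cells the highest polysomal library came close to the lowest total one. Its log2 change was 0.89 ± 0.25 in KO cells (limma adjusted p = 0.0937) and -0.27 ± 0.18 in WT cells (limma adjusted p = 0.304).

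Hes6 (chr1:91411483-91414038, ENSMUSG00000067071) had 234, 104 and 128 normalised read counts in KO polysomal RNA, against 165 and 183 in KO total RNA. In WT cells it had 54.8, 99.2 and 30.0 in polysomal RNA, against 70.2, 63.3 and 58.4 in total RNA. Fractions overlapped in both genotypes, the polysomal libraries being far more spread than the total ones. The log2 change was -0.25 ± 0.34 in KO cells (limma adjusted p = 0.704) and -0.22 ± 0.39 in WT cells (limma adjusted p = 0.702).

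**Figure D2:**
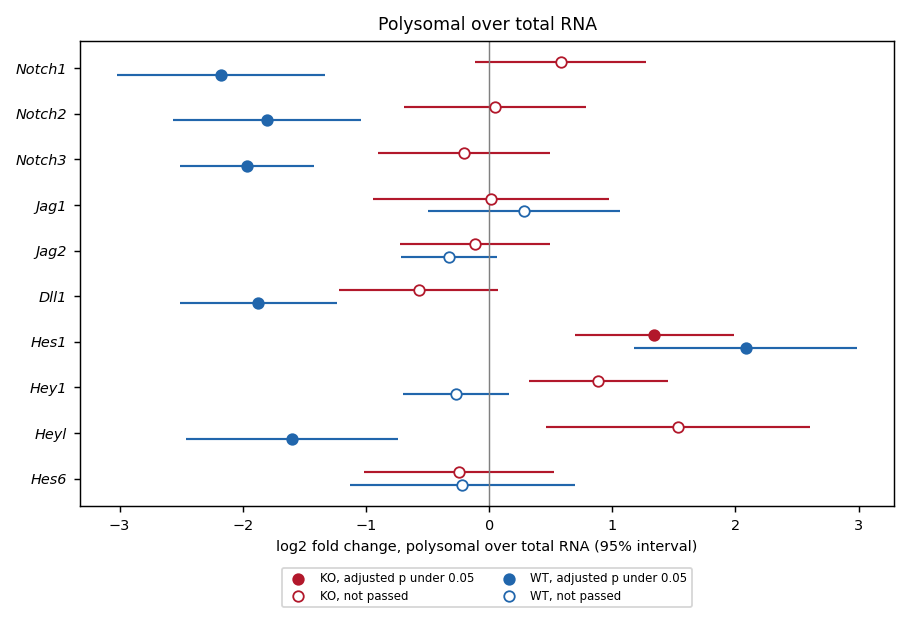
Polysomal over total RNA for the 10 genes in KO and in WT cells. The axis is the log2 fold change from limma and the bars are 95% confidence intervals. In WT cells the intervals of Notch1, Notch2, Notch3, Dll1 and Heyl lie below 0; in KO cells none does, those of Hey1 and Heyl lie above 0, and Hes1 lies above 0 in both.

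Which WT library was left out mattered for the number of WT calls: it was 2, 2 and 1 without total library 1, 2 or 3, 6 without polysomal library 1 or 3, and 8 without polysomal library 2. Polysomal library 2, with 14.4% of reads on ribosomal RNA gene models, had the lowest Notch1, Notch2 and Notch3 and the highest Hes1 and Hes6 of the 3. KO polysomal library 2, with 32.4% of reads on these models, went the other way on the deposited scale. It had the highest Notch1, Notch2 and Notch3 and the lowest Hes6 and, narrowly, Hes1 of its group. Without WT polysomal library 2, Jag2 (-0.40, limma adjusted p = 0.0217) and Hes6 (-0.64, limma adjusted p = 0.0341) also passed in WT cells. In the authors' deposited table, a false discovery rate of 0.05 called 1 member higher and 0 lower in KO cells, and 1 higher and 5 lower in WT cells. The share of all genes called is not given for the authors' test. Nor is it given, here or below, with a library left out or the length trend removed. Those counts therefore describe the members alone.

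Receptor mRNAs are long, and long mRNAs as a class were lower in WT polysomes. Annotated length is 14192 bases for Notch1, 10472 for Notch2 and 8011 for Notch3, against 1901 to 6390 for the other members. Among genes of at least 8 kb, 2.76% of 1379 were lower in KO polysomal than KO total RNA, with a median log2 change of 0.11, and 28.0% of 1430 were lower in WT polysomal than WT total RNA, with a median of -0.61. The 5th percentile of these long genes in WT cells was -2.09, so Notch1, at -2.18, was beyond it and Notch2 and Notch3 were not. Across genes, the log2 change per doubling of length, against the mean of the total libraries, was -0.16, 0.17 and 0.11 in KO polysomal libraries 1, 2 and 3. It was -0.23, -0.53 and -0.14 in WT polysomal libraries 1, 2 and 3. Library 2 held the most ribosomal RNA reads in both of these groups, and its slopes had opposite signs. The KO total libraries also differed from each other, at 0.11 and -0.11, against -0.0088 to 0.0074 in the WT total libraries. With the length trend removed in each library, the WT polysomal over total log2 changes were -1.36 for Notch1, -1.19 for Notch2, -1.51 for Notch3, -1.72 for Dll1, -1.38 for Heyl and 1.85 for Hes1, and all 6 passed the test. All 6 were smaller in size than without this step, and the part of length in them was not tested.

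**Figure D3:**
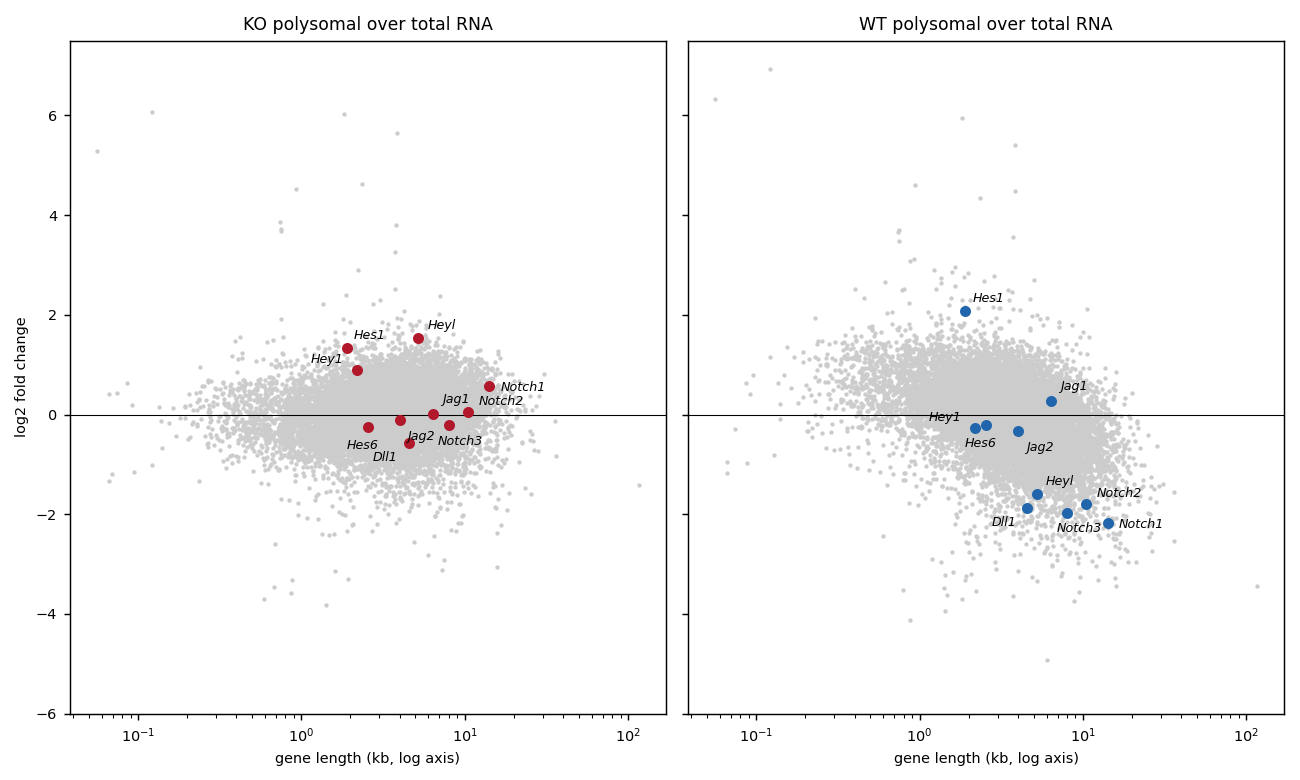
Change between polysomal and total RNA (log2) against annotated gene length (kb, log axis) in KO and in WT cells. Grey points are all genes tested and coloured points the 10 genes. The WT cloud bends down at the long end, where Notch1, Notch2 and Notch3 sit at its lower side, and the KO cloud does not.

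Whether the polysomal over total change differs between the genotypes was tested as an interaction over all 11 libraries. The difference, KO minus WT, was positive for all 3 receptors, at 2.76 ± 0.51 log2 units for Notch1, 1.85 ± 0.51 for Notch2 and 1.76 ± 0.40 for Notch3. For the Hes and Hey genes it was 3.13 ± 0.66 for Heyl and 1.16 ± 0.27 for Hey1, and -0.74 ± 0.53 for Hes1 and -0.03 ± 0.58 for Hes6. For the ligands it was 1.30 ± 0.39 for Dll1, 0.22 ± 0.30 for Jag2 and -0.26 ± 0.59 for Jag1. By limma 0 of the 10 members passed, against 0.265% of 12474 genes, the smallest adjusted p being 0.0544 for Notch1; it was 0.0690 for Heyl, 0.0785 for Notch3, 0.0811 for Hey1, 0.108 for Notch2 and 0.130 for Dll1. At an unadjusted p under 0.05, 6 members passed, against 20.9% of all genes. edgeR on the recovered reads called 0 (0.249% of all genes), and DESeq2 called 6, namely Notch1, Notch2, Notch3, Dll1, Hey1 and Heyl (7.56% of all genes). The call therefore depends on the tool; with WT polysomal library 2 left out, limma called Notch1, Notch3, Hey1 and Heyl.

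The members' median difference was 1.23 log2 units, where that of all genes was 0.09 and that of genes of at least 8 kb was 0.71. On the deposited scale, every polysomal library of Notch1, Hey1 and Heyl was above every total library in KO cells and below every total library in WT cells, a layout held by 1.73% of the 12590 genes in both tables. The interaction also used the deposited scale. On the common scale the KO groups of Notch1 overlapped, since KO polysomal library 1 had 11.31 normalised read counts, against 11.55 in KO total library 1.

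The next comparison sets KO against WT cells in total RNA, on the scale common to all 11 libraries. Here 6 members fell and 2 rose in KO cells: Notch1, Notch2, Notch3, Jag2, Hey1 and Heyl were lower, and Dll1 and Hes6 higher. Of 12003 genes tested, 36.8% changed, 18.9% lower and 17.9% higher. Both KO libraries were below all WT libraries in 7 members, against 33% of genes in both tables, and above them in 2, against 31%. In bulk RNA, fewer cells that express a gene and less of its RNA per cell cannot be told apart. The total libraries are also the denominators of the polysomal changes given above, so these results are not independent of those.

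Notch1 was the member with the smallest adjusted p: it had 11.6 and 9.78 normalised read counts in KO total RNA, against 48.1, 53.6 and 62.6 in WT total RNA, and both KO libraries lay far below the lowest WT one. Its log2 change was -2.25 ± 0.17 (limma adjusted p = 0.000168). Notch2 had 127 and 79.2 in KO total RNA, against 245, 247 and 247 in WT total RNA. Notch3 had 136 and 70.8 in KO total RNA, against 189, 180 and 190 in WT total RNA. For both genes the groups did not overlap, but KO library 2 was much lower than KO library 1. The log2 change was -1.29 ± 0.20 for Notch2 (limma adjusted p = 0.00326) and -0.92 ± 0.25 for Notch3 (limma adjusted p = 0.0226). Long genes as a class were lower here as well: 41.7% of the 1391 genes of at least 8 kb fell, with a median of -0.48. With the length trend removed the falls were smaller, at 1.68 for Notch1, 0.82 for Notch2 and 0.56 for Notch3 on the log2 scale. The part of length in these falls was not tested.

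Notch1 also made up less of the receptor mRNA. Per kilobase, Notch1 was 2.72% and 4.03% of the summed level of the 3 receptors in KO total RNA, against 6.72%, 7.58% and 8.51% in WT total RNA. In polysomal RNA it was 4.82%, 5.74% and 5.38% in KO cells, against 5.94%, 4.58% and 7.31% in WT cells. The share was lower in KO than in WT total libraries without overlap, while the polysomal shares of the genotypes overlapped.

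Dll1 went the opposite way to the receptors. It had 10.5 and 7.003 normalised read counts in KO total RNA, against 4.797, 3.67 and 4.06 in WT total RNA, a log2 change of 0.89 ± 0.23 without overlap (limma adjusted p = 0.0191). Jag2 had 56.6 and 37.4 in KO total RNA, against 78.3, 74.9 and 66.6 in WT total RNA, a log2 change of -0.66 ± 0.19 (limma adjusted p = 0.0310). Jag1 had 9.95 and 7.69 in KO total RNA, against 13.0, 11.9 and 6.80 in WT total RNA. It was the only member whose total libraries overlapped between genotypes, with a 95% confidence interval of -0.83 to 0.43 for the log2 change (limma adjusted p = 0.586).

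Of the targets, Hey1 fell to 7.83 and 8.97 normalised read counts in KO total RNA, against 19.96, 20.2 and 22.2 in WT total RNA (log2 change -1.21 ± 0.16, limma adjusted p = 0.00205). Heyl fell to 3.10 and 0.299 in KO total RNA, against 8.68, 7.83 and 17.1 in WT total RNA (log2 change -2.33 ± 0.49, limma adjusted p = 0.0101). Both were below the WT range in each KO library, and the KO libraries of Heyl differed widely from each other. Hes1 had 36.8 and 48.1 in KO total RNA, against 52.0, 55.6 and 66.3 in WT total RNA, also without overlap but with a smaller difference that missed the threshold (log2 change -0.44, 95% confidence interval -0.85 to -0.04, limma adjusted p = 0.0777). With the length trend removed Hes1 passed (-0.73, limma adjusted p = 0.00530).

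Hes6, the HES1 antagonist, rose to 175 and 193 normalised read counts in KO total RNA, against 67.8, 61.2 and 56.9 in WT total RNA. The KO libraries were close to each other and far above the WT ones, with a log2 change of 1.55 ± 0.14 (limma adjusted p = 0.000387). Without WT total library 3 only 4 members passed, against 6 to 8 with any other single library left out. Notch1, Notch2, Hey1 and Hes6 passed with any library left out.

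**Figure D4:**
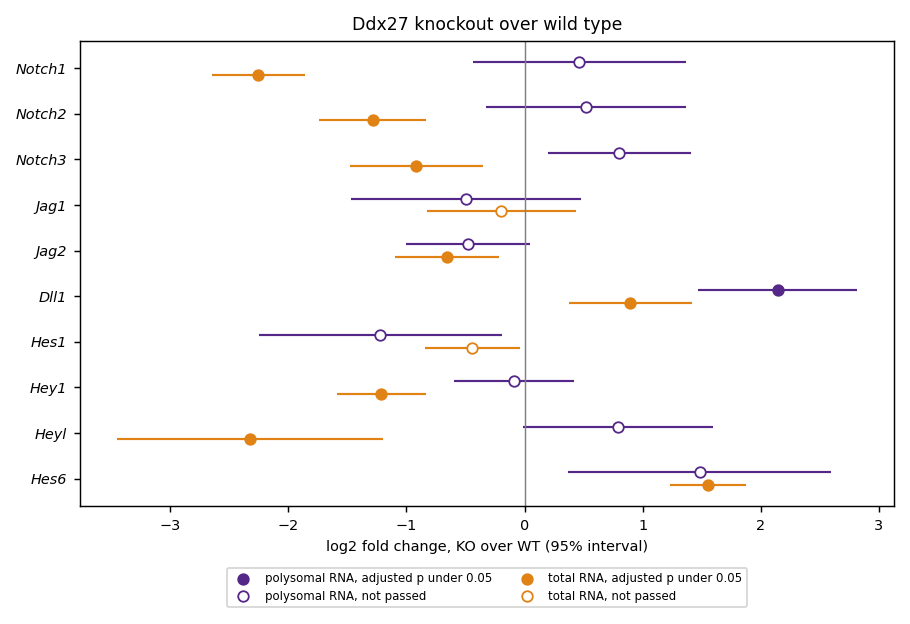
KO over WT for the 10 genes in polysomal and in total RNA. The axis is the log2 fold change from limma on the common scale and the bars are 95% confidence intervals. In total RNA the intervals of Notch1, Notch2, Notch3, Jag2, Hes1, Hey1 and Heyl lie below 0, Hes1 without passing the test after adjustment, and those of Dll1 and Hes6 above it; in polysomal RNA Notch3, Dll1 and Hes6 lie above 0, Hes1 lies below it, and Notch1 and Notch2 include 0.

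In polysomal RNA the genotypes differed in fewer members. Only Dll1 rose in KO polysomes, where 2.57% of 12184 genes changed, 1.62% higher and 0.952% lower, and 4 members passed at an unadjusted p under 0.05, against 15.9% of all genes. Dll1 had 6.39, 4.71 and 4.86 normalised read counts in KO polysomal RNA, against 0.741, 0 and 0.645 in WT polysomal RNA. Every KO library was several times the highest WT one (log2 change 2.14 ± 0.29, limma adjusted p = 0.0114). Dll1 passed the filter only through the KO libraries, so it had to differ to be tested, and edgeR, which called 2.23% of all genes, did not call it (adjusted p = 0.0634).

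None of the receptors, lower in KO total RNA, passed in polysomal RNA (adjusted p of 0.184 to 0.622 in limma). Notch3 had 72.5, 98.3 and 80.0 normalised read counts in KO polysomal RNA, against 64.4, 39.8 and 40.7 in WT polysomal RNA, with no overlap (log2 change 0.80 ± 0.26, limma adjusted p = 0.184). Notch1 had 11.3, 20.9 and 17.1 in KO polysomal RNA, against 14.7, 6.12 and 15.6 in WT polysomal RNA, and Notch2 had 70.1, 125 and 117, against 87.8, 42.0 and 92.9. Both overlapped between genotypes, with 95% confidence intervals of the log2 change of -0.43 to 1.36 for Notch1 (limma adjusted p = 0.622) and -0.33 to 1.37 for Notch2 (limma adjusted p = 0.552).

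Hes6 had 242, 108 and 129 normalised read counts in KO polysomal RNA, against 51.5, 102 and 28.4 in WT polysomal RNA. All KO libraries were higher, 1 of them only narrowly, because WT polysomal library 2 stood well above the other WT libraries. Its log2 change was 1.48 ± 0.48 (limma adjusted p = 0.183), and without that library it was 1.94 (limma adjusted p = 0.0293). Hes1 had 145, 90.1 and 89.8 in KO polysomal RNA, against 148, 499 and 206 in WT polysomal RNA, without overlap (log2 change -1.22 ± 0.45, limma adjusted p = 0.229). The remaining members missed the threshold too, at log2 changes of -0.50 for Jag1, -0.48 for Jag2, -0.09 for Hey1 and 0.79 for Heyl (limma adjusted p between 0.324 and 0.875).

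The balance of the 2 Hes genes was read within each library, which removes any scaling between libraries. Per kilobase, the level of Hes6 over that of Hes1 was 1.24, 0.891 and 1.07 in KO polysomal RNA and 3.51 and 2.97 in KO total RNA, against 0.259, 0.151 and 0.102 in WT polysomal RNA and 0.967, 0.816 and 0.636 in WT total RNA. In each fraction every KO library had a higher ratio than every WT library. The difference in this ratio was not tested.

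**Figure D5:**
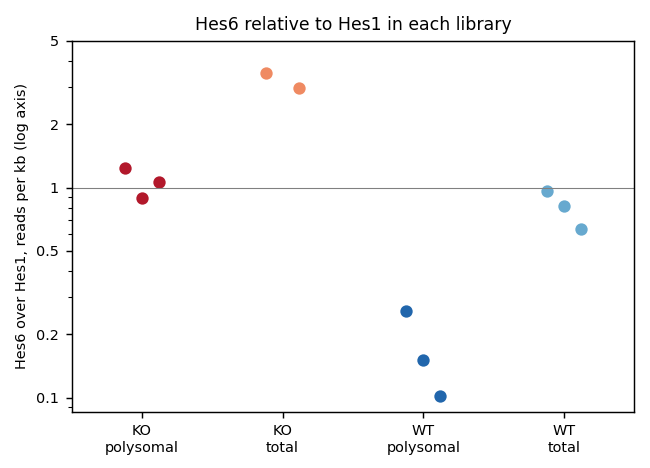
Level of Hes6 over level of Hes1 in each library, both per kilobase, on a log axis. Points are libraries by group. KO libraries lie above WT libraries in each fraction, at 0.891 to 1.24 against 0.102 to 0.259 in polysomal RNA and 2.97 to 3.51 against 0.636 to 0.967 in total RNA.

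Compared per kilobase on the common scale, the levels of the members span more than an order of magnitude in each group. In KO polysomal RNA Hes6 (62.3 ± 27.9 normalised read counts per kilobase, SD, n = 3) and Hes1 (57.0 ± 16.7) were highest and overlapped; Notch3 (10.4 ± 1.66), Jag2 (10.4 ± 1.66) and Notch2 (9.94 ± 2.84) followed and overlapped. Hey1 (7.28 ± 0.716) overlapped Notch2, and Jag1 (1.499 ± 0.866), Dll1 (1.16 ± 0.203), Notch1 (1.16 ± 0.340) and Heyl (1.12 ± 0.350) were lowest and overlapped. In KO total RNA Hes6 (71.6 ± 4.99, SD, n = 2) was far above Hes1 (22.3 ± 4.19). Below them came Notch3 (12.9 ± 5.78), Jag2 (11.7 ± 3.38) and Notch2 (9.86 ± 3.24), which overlapped, then Hey1 (3.82 ± 0.366), Dll1 (1.91 ± 0.536), Jag1 (1.38 ± 0.251), Notch1 (0.752 ± 0.0884) and Heyl (0.327 ± 0.380).

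In WT polysomal RNA Hes1 (149 ± 99.0, SD, n = 3) stood apart at the top. Hes6 (23.6 ± 14.6) overlapped Jag2 (14.5 ± 2.02), and Hey1 (7.79 ± 0.730), Notch2 (7.09 ± 2.68) and Notch3 (6.03 ± 1.75) overlapped one another. Jag1 (2.03 ± 0.606), Notch1 (0.856 ± 0.369), Heyl (0.578 ± 0.251) and Dll1 (0.101 ± 0.0881) were lowest. In WT total RNA the order was Hes1 (30.5 ± 3.92, SD, n = 3), Hes6 (24.2 ± 2.14), Notch2 (23.5 ± 0.0965), Notch3 (23.3 ± 0.711), Jag2 (18.2 ± 1.502), Hey1 (9.46 ± 0.575), Notch1 (3.86 ± 0.515), Heyl (2.16 ± 0.988), Jag1 (1.65 ± 0.514) and Dll1 (0.913 ± 0.125). Hes6, Notch2 and Notch3 did not differ beyond their spread there, nor did Heyl and Jag1. The mean of Hes6 was above that of Hes1 in both KO groups and below it in both WT groups.

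Beyond the 10 members, a list of 57 other genes of the pathway was described. In it, 41 genes were tested in each of the pairwise comparisons; the ligands Dll3, Dll4, Dlk1 and Dner and the repressors Hes5, Hes7 and Hey2 were among those listed in neither table, and Notch4 was listed only in the WT table. In KO polysomal over total RNA 0 of 41 passed in limma, against 9 at an unadjusted p under 0.05 (22.7% of all genes), with a median log2 change of 0.12. In WT polysomal over total RNA 5 were lower and 0 higher, where 13.8% of all genes were lower and 8.89% higher, with a median of -0.35: the co-repressor Tle2 (-1.45 ± 0.24, limma adjusted p = 0.00794), Spen, a co-repressor that binds RBPJ (-1.31 ± 0.22, 0.00821), the ubiquitin ligases Neurl1a (-1.24 ± 0.34, 0.0376) and Dtx4 (-1.12 ± 0.18, 0.00759), and the gamma-secretase subunit Ncstn (-0.91 ± 0.18, 0.0142). The count was 1, 2 and 0 without WT total library 1, 2 or 3, and 12 without WT polysomal library 2.

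In KO over WT total RNA 4 of the 41 rose and 11 fell, with a median log2 change of -0.21; of all genes 17.9% rose and 18.9% fell, 36.8% together, so the 15 calls are near the share of all genes. The number called was 7, 5 and 5 without WT total library 1, 2 or 3, and 25 without KO total library 1. By role, the falls were 3 of 12 tested genes of receptor maturation and cleavage, 3 of 4 of ligand endocytosis, 1 of 7 inhibitors and 4 of 17 of the nuclear complex. Dlk2, a non-canonical ligand of the Delta family, had 30.4 and 33.1 normalised read counts in KO total RNA, against 4.18, 5.34 and 2.10 in WT total RNA. This was several times the WT level in each KO library, with a log2 change of 2.81 ± 0.29 (limma adjusted p = 0.000765). Spen fell (-1.25 ± 0.28, limma adjusted p = 0.0121), and Tle4, a Groucho-family co-repressor, rose (1.23 ± 0.21, limma adjusted p = 0.00482). Rbpj, the DNA-binding hub of the pathway, had 17.8 and 21.9 in KO total RNA, against 15.9, 16.0 and 12.3 in WT total RNA (log2 change 0.41 ± 0.19, limma adjusted p = 0.118). In KO over WT polysomal RNA 0 of 41 passed in limma, against 8 at an unadjusted p under 0.05 (15.9% of all genes), and for the difference of polysomal over total between genotypes 0 of 42, against 13 (20.9% of all genes).

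The genes whose pattern was most like that of Notch3 over the 11 libraries were Golga2 (Pearson r = 0.983), Dab2ip (0.983), Mapkbp1 (0.976), Cyth3 (0.976) and Synpo (0.971), out of 12462 genes. Golga2 encodes a Golgi matrix protein, Dab2ip a Ras GTPase-activating protein and Synpo an actin-associated protein. Among the members, Notch2 ranked 105 (r = 0.910) and Notch1 604 (r = 0.820), and Hes1 ran the other way (r = -0.800). These are descriptions over libraries that share their groups, fractions and scaling.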

How the data were processed

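RNA sequencing reads of 11 libraries were analysed from 1 complete table per genotype; the submitters' processing notes name STAR, HTSeq, edgeR and mm10. The authors' deposited values are a signal, a normalised read count: for 100% of values, whole reads times 1 factor per library (tolerance 0.001 reads), with column sums of 847338 to 1215073. The deposited tables also give log2 fold changes, p-values with their false discovery rates, gene length and coordinates (gene length, a further deposited column, was used per kilobase). KO column names match sample titles by group only, so their numbers are column numbers.

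Each contrast was fitted on log2(value + 1) in limma 3.58.1 (R 4.3.3), trended empirical Bayes, over genes with at least 1 in at least 3 fitted libraries, and adjusted by Benjamini-Hochberg over all genes at 0.05; log2 fold changes are on that scale and understate changes of low genes. Polysomal over total contrasts and the interaction used the deposited scale. KO over WT contrasts used a median-of-ratios scale over all 11 libraries. Fits were also run on simulated counts with a fixed dispersion and no length trend. That simulation does not cover the spread or the length trends of these libraries. Alternatives were a pseudocount of 0.5, no filter, quantile and TMM scaling, removal of a length trend (loess, span 0.3), edgeR 4.0.16 quasi-likelihood and DESeq2 1.42.0 on recovered reads, a replicate block and leaving out each library. Intervals are 95% and cover the spread between libraries; floors cover counting error only. All 10 members are named, and from the pathway list the 4 largest calls, 1 of which is not reported here; Ncstn, Rbpj and Gm26924 were added after their values were seen. The members and lists were chosen with earlier results of these data known. Whether the count was stranded is not given in the sources used here, so overlapping antisense transcripts cannot be told apart.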

Additional observations from a re-analysis of the deposited data

Results flagged for a closer look

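For 3 genes the libraries of the 2 genotypes lay in opposite order on the deposited scale: every KO polysomal library was above every KO total library, and every WT polysomal library below every WT total library. The difference of the polysomal over total log2 change, KO minus WT, was 2.76 for Notch1 (limma adjusted p = 0.0544), 1.16 for Hey1 (limma adjusted p = 0.0811) and 3.13 for Heyl (limma adjusted p = 0.0690), none of which passed in limma or edgeR, while all 3 passed in DESeq2. Over the alternatives the adjusted p ran between 4.21e-05 and 0.312 for Notch1, 0.000566 and 0.355 for Hey1, and 0.00626 and 0.397 for Heyl. For Notch1 this order rests on the scale. On the common scale, which the difference did not use, KO polysomal library 1 (11.31) was below KO total library 1 (11.55). Heyl rests on 7 reads in 1 KO total library. The same layout was held by 218 of 12590 genes on the deposited scale. Groups of 3 or fewer libraries cannot be screened for a single outlying library.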

How the results depend on the processing

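The number of members called was within 1.5 times the first value under most settings. The exceptions were KO polysomal over total (1 called; 0 with TMM scaling, 2 with the length trend removed, 0 in edgeR, 2 in DESeq2), KO over WT polysomal RNA (1 called; 0 in edgeR) and the difference between genotypes (0 called; 3 with the length trend removed, 6 in DESeq2). With each library left out in turn, counts ran between 1 and 8 in WT polysomal over total, 0 and 1 in KO polysomal over total, 4 and 8 in KO over WT total, 0 and 2 in KO over WT polysomal and 0 and 4 for the difference; leaving out 1 KO total library leaves 1, assumed to vary like the other groups. Dll1 fell below the filter without any 1 WT total library in the WT fit, and without any 1 KO polysomal library in the polysomal fit, so those counts cover 9 members. For the pathway list, WT polysomal over total had 5 calls (3 with the length trend removed, 8 in DESeq2), KO polysomal over total 0 (1 with a pseudocount of 0.5, 3 with the length trend removed, 4 in DESeq2), KO over WT polysomal 0 (3 with the length trend removed, 6 in DESeq2) and the difference 0 (1 with the length trend removed, 3 in DESeq2); with a library left out the counts ran between 0 and 3, 0 and 3, and 0 and 4 for the last 3 of these.

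Directions turned only for changes that were not called: in WT polysomal over total, Hes6 to 0.000774 in DESeq2 (-0.64 to 0.21 with a library left out). In KO polysomal over total they turned for Notch2 (-0.056 with the length trend removed; -0.29 to 0.39 with a library left out), Notch3 (-0.67 to 0.26), Jag1 (-0.12 with quantile scaling, -0.089 with the length trend removed; -0.37 to 0.40) and Jag2 (-0.41 to 0.18). In KO over WT total RNA, Jag1 turned to 0.063 with the length trend removed. For the difference they turned for Jag1 (-0.65 to 0.12), Jag2 (-0.077 to 0.51) and Hes6 (0.12 with quantile scaling, 0.11 with the length trend removed; -0.45 to 0.39). The cause was not tested.

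Same-numbered WT polysomal and total libraries correlated at 0.21, -0.22 and -0.07 across genes in their deviations from the group means. These values show no sign of pairing by number, but so few libraries cannot exclude it. A fit with the replicate number as a block called 6 members, 1 higher and 5 lower, as without it. KO columns carry no label numbers for a block. Depth limits Dll1 and Heyl most, at 0 to 19 reads for Dll1 in WT polysomal and 7 reads for Heyl in 1 KO total library.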
